A study of Mus musculus with 16 samples.

Results

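Planar cell polarity is the alignment of cells within the plane of an epithelium. It rests on membrane complexes that gather on opposite sides of each cell border: Frizzled receptors and the cytoplasmic Dishevelled proteins on the border facing one way, Vangl proteins and their Prickle adaptors on the other, and the atypical cadherins of the Celsr family bridging neighbouring cells from either side. In the cochlea this pathway is known for orienting the stereociliary bundles of hair cells and for the cell movements that lengthen the organ of Corti. The 10 genes described here are Vangl1 and Vangl2, Celsr1, Celsr2 and Celsr3, Prickle1 and Prickle2, the receptor-like protein gene Ptk7, the scaffold gene Scrib, and Dvl2. They were chosen by gene symbol among 50316 gene IDs, of which 47729 had values. Of the 10, 9 reached at least 0.5 CPM (read counts scaled to the library total) in all 4 replicates of at least 1 group and were tested. Celsr3 was listed at 0 CPM in each of the 16 libraries, and a second gene ID that carries its symbol had no value in any library, so Celsr3 enters no comparison.

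RNA was sequenced from P4 mouse cochleae that carry GLAST-CreERT/+ and Rpl22 HA/+, in which Cre switches a ribosomal protein to an HA-tagged form in GLAST-Cre+ cells. DTR cochleae carry Lgr5 DTR/+ in addition, which puts the diphtheria toxin (DT) receptor under Lgr5 control and so exposes Lgr5+ supporting cells to ablation. According to the methods of the study, mice of both genotypes received DT and tamoxifen as neonates, while the sample labels read "No treatment" for control and "DTR treated" for DTR. Each pool of cochleae from several mice, dissected free of the ganglion, the lateral wall and the roof membrane, gave an input library from whole homogenate and an IP library from ribosomes pulled down with anti-HA. Input and IP of each genotype held 4 libraries. Per the study, GLAST-Cre labels inner phalangeal cells as well as part of the cells of the greater epithelial ridge (GER), the transient epithelium medial to the inner hair cells, so the IP is no pure GER sample.

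Counted reads per library ranged from 28089836 to 41966310, and within each group the libraries correlated with each other at a mean r of 0.977 to 0.987 across tested genes. In IP, Lgr5 was at 36.6 ± 3.99 CPM (SD, n = 4) in control and 9.38 ± 1.40 CPM in DTR cochleae, and at 63.3 ± 3.03 and 15.9 ± 3.69 CPM in input. Per the study, the receptor is a knock-in driven by endogenous Lgr5 expression. The genotypes thus differ in an Lgr5 allele as well as in ablation, and the parts of both in the Lgr5 level cannot be told apart. Slc1a3, which encodes GLAST, was not higher in IP than in input, at 236 ± 21.9 against 281 ± 14.3 CPM in control cochleae. The summed markers of Lgr5-expressing supporting cells fell from a range of 198 to 302 CPM in control IP to 62.1 to 80.7 CPM in DTR IP, with 5 of 6 genes called, and from 331 to 359 to a range of 56.6 to 80.6 CPM in input, with 6 of 6 called. Fgfr3 was the largest part of these sums in control cochleae, with a mean of 126 CPM in IP and 193 CPM in input. Markers of dividing cells rose, from 37.7 to 82.4 CPM in control IP to 132 to 205 CPM in DTR IP, with 8 of 8 called, Mki67 among them (12.1 ± 3.66 to 32.1 ± 4.96 CPM). Of the 8 marker lists, 0 genes were at 0 in all libraries.

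**Figure D1:**
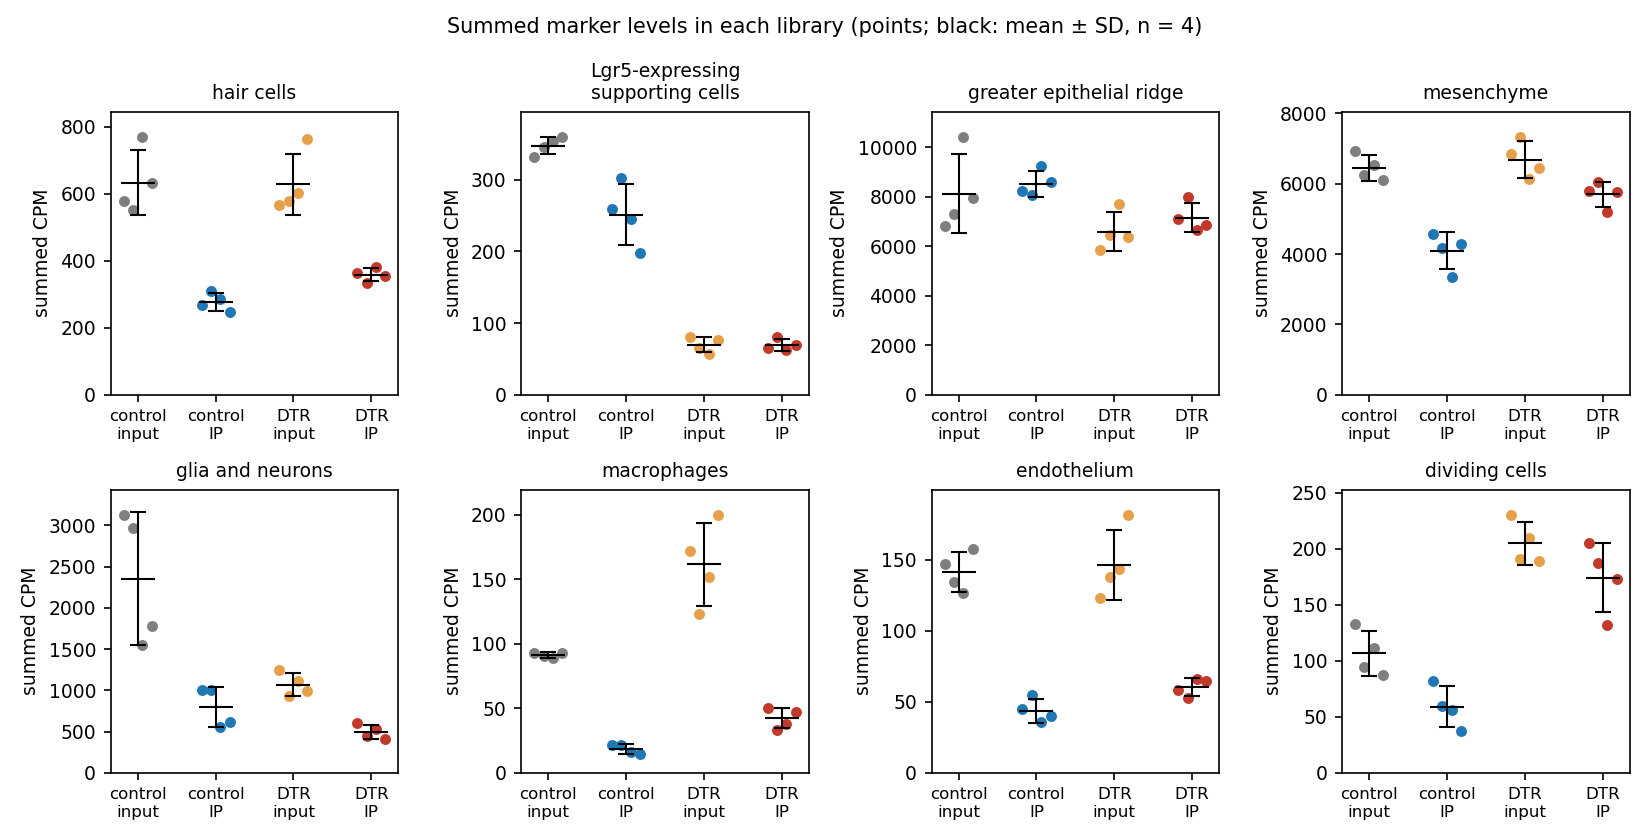
Summed CPM of 8 lists of cell type markers in each of the 16 libraries (points), with the mean and SD per group (n = 4) in black and each vertical axis starting at 0. Supporting cell markers dropped in DTR libraries, markers of dividing cells were higher there, and macrophage and endothelial markers lay lower in IP than in input.

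Levels of the members were first compared per kb of annotated exon, which allows genes of different length to be set side by side. In control input, Ptk7 was highest at 35.3 ± 2.05 CPM per kb (SD, n = 4), above every library of every other member. Vangl1 (9.94 ± 1.04), Vangl2 (9.35 ± 0.757), Celsr1 (9.17 ± 2.35), Prickle1 (8.22 ± 0.903) and Dvl2 (7.71 ± 1.03 CPM per kb) followed, each overlapping the next down to Dvl2, which lay above Scrib in every library. Scrib (4.88 ± 0.674) and Celsr2 (4.24 ± 0.483) also overlapped each other, and Prickle2 was lowest at 3.12 ± 0.338 CPM per kb. In control IP the upper members lay closer to each other. Ptk7 (17.5 ± 2.14 CPM per kb) overlapped Vangl1 (15.2 ± 0.846), Vangl2 (12.2 ± 1.04) lay apart below them, and Celsr2 was at 8.44 ± 0.470 CPM per kb, overlapping Celsr1 at 8.94 ± 0.632. In DTR IP, Ptk7 (17.1 ± 3.80) overlapped Vangl2 (12.0 ± 1.44 CPM per kb), which stood above Vangl1 (9.47 ± 1.04) in every library.

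**Figure D2:**
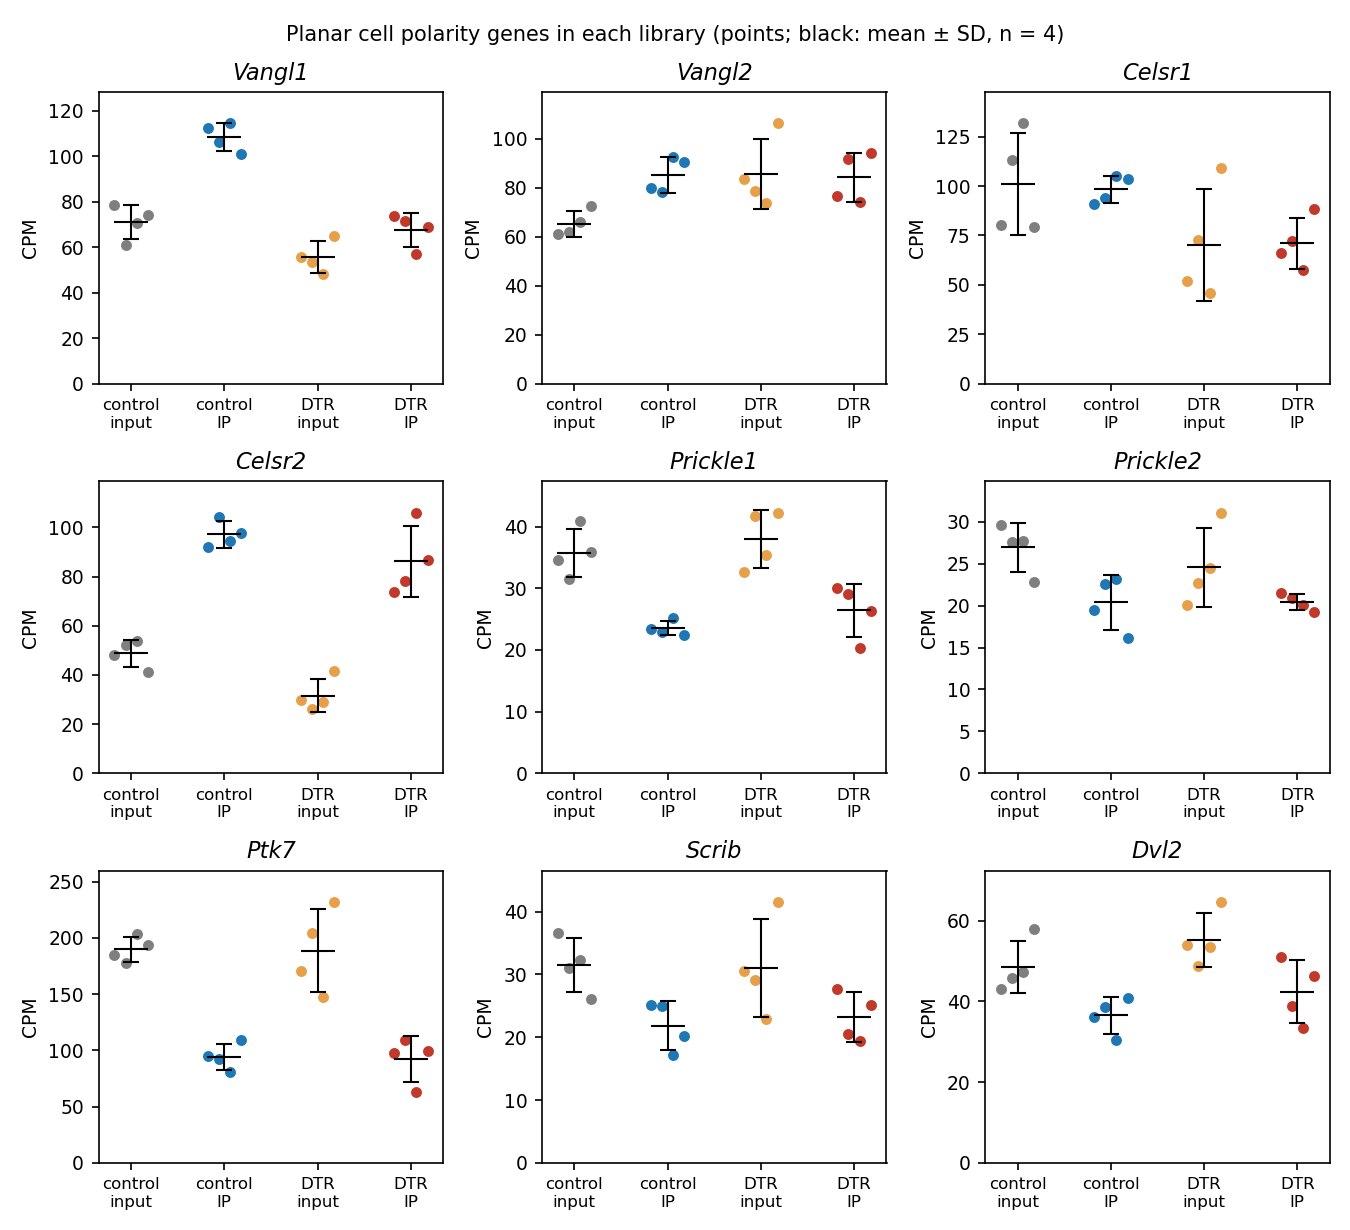
CPM of the 9 members with values above 0 in each of the 16 libraries (points, left to right replicates 1 to 4), with the mean and SD per group (n = 4) in black and each vertical axis starting at 0. Vangl1 in DTR IP lies below all control IP libraries, Celsr2 in IP lies above all input libraries, and Ptk7 in IP lies below all input libraries.

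To show the sequence next to the 2 members with the largest and opposite differences between IP and input, the 250 bases before the annotated start of Celsr2 (higher in IP) and Ptk7 (lower in IP) are printed below from RefSeq on GRCm38.p6, 5′ to 3′ on the strand of each gene, with matches to the GC box GGGCGG or its reverse complement in capitals. Celsr2 lies at chr3:108415580-108415829 on the minus strand, and Ptk7 at chr17:46629505-46629754 on the minus strand.
Celsr2: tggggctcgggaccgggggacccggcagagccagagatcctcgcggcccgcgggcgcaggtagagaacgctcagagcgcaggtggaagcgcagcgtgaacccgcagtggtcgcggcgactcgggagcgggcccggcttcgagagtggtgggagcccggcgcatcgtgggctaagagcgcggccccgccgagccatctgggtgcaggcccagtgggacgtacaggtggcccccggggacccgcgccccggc
Ptk7: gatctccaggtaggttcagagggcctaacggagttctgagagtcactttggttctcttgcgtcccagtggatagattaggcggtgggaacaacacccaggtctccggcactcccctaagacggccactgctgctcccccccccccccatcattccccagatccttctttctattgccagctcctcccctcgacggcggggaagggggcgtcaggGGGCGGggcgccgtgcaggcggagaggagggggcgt

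Celsr2 holds 32 CpG dinucleotides in this window, more than 95.4% of 32851 promoters of the same length, and Ptk7 holds 14, more than 70.6%, while the median promoter holds 6. The Celsr2 window has 0 GC boxes and that of Ptk7 has 1, and 32.7% of all promoters hold at least 1. Neither window has a TATA box (TATAAA, in 12.4% of promoters) or a CCAAT box (CCAAT, in 33.8%), searched on both strands. RefSeq windows were found for 7 of the 10 members, and those of Vangl1, Celsr1 and Scrib were not used here. These matches describe the letters only, and nothing measured here bears on which factors bind there.

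The first question was which of these genes changed after ablation of Lgr5+ cells. Changes are given as log2 fold changes (LFC) between group means of log2(quantile-normalized CPM + 0.5), tested with limma, and a gene was called at an adjusted p under 0.05. In DTR IP against control IP, 1 of 9 members was called, Vangl1, which was lower, and 0 were higher. Over all 16994 tested genes, 7.30% were called lower and 8.44% higher in this comparison. In DTR input against control input, 2 of 9 were called lower, Vangl1 and Celsr2, and 0 higher, beside 5.21% lower and 7.17% higher of all tested genes. The median LFC of the 9 members was -0.03 in IP and -0.06 in input, against -0.0043 and -0.021 over all tested genes. On quantile-normalized values, DTR and control libraries did not overlap for 1 of 9 members in IP and 2 of 9 in input. Of all tested genes, 16.5% and 19.5% did not overlap in these comparisons. Values of single libraries below are CPM as deposited, on which overlap can differ. Under the size criteria of the study, applied here in both directions (absolute LFC of at least 1 and a separation above 1.5, separation being the ratio between the nearest libraries of both groups), 0 members were called in IP and 0 in input, against 2.47% and 2.34% of all tested genes. In bulk samples such as these, fewer cells of a type and less RNA per cell cannot be told apart.

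Vangl1 and Vangl2 encode multipass membrane proteins that recruit Prickle to the same border. Vangl1 (ENSMUSG00000027860, chromosome 3 of GRCm38 from 102153583 to 102204693, minus strand) had 112, 106, 115 and 101 CPM in the 4 control IP libraries, against 73.8, 71.5, 57.0 and 68.8 CPM in DTR IP. The highest DTR IP library thus lay below the lowest control IP library. The LFC was -0.70 (standard error 0.10, limma adjusted p = 9.5e-05), a 1.63-fold lower level, and the call held in 28 of 28 alternative analyses with adjusted p between 4.2e-08 and 0.0016. In input, the libraries held 78.6, 61.1, 70.7 and 74.1 CPM in control and 55.9, 53.6, 48.1 and 64.9 CPM in DTR, so the groups overlapped at their edges although DTR was lower in 4 of 4 replicate numbers. There the LFC came to -0.35 (standard error 0.10, adjusted p = 0.033). This call was lost without control input replicate 1, 3 or 4, or DTR input replicate 1, 2 or 3, with adjusted p between 0.076 and 0.10. Vangl1 shares exon sequence with Gm16160 on the opposite strand, and the strand setting of the counting is not given in the sources used here, so its values are uncertain to that extent.

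Vangl2 (ENSMUSG00000026556, chromosome 1 from 172000960 to 172028444, minus strand) had 79.9, 78.3, 92.6 and 90.4 CPM in control IP, against 76.8, 91.5, 74.3 and 94.2 CPM in DTR IP, and the groups overlapped almost wholly. The LFC was -0.03, with a 95% interval from -0.29 to 0.23 (adjusted p = 0.91). In input, all 4 DTR libraries (83.5, 78.8, 73.9 and 106 CPM) lay above all 4 control libraries (61.0, 61.9, 66.1 and 72.6 CPM). The LFC of 0.37 (standard error 0.12) did not pass the threshold (adjusted p = 0.058). It passed in 6 of 28 alternatives, among them the replicate number as a block (adjusted p = 0.011) and the fit without DTR IP replicate 4 (adjusted p = 0.049). Per kb of exon, Vangl1 made up 51.5% ± 2.97 (SD, n = 4) of the sum of both genes in control input and 38.9% ± 1.13 in DTR input, and 55.4% ± 2.54 in control IP against 44.0% ± 3.00 in DTR IP. The 4 DTR libraries lay below the 4 control libraries in input and in IP, and this difference in shares was not tested.

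**Figure D3:**
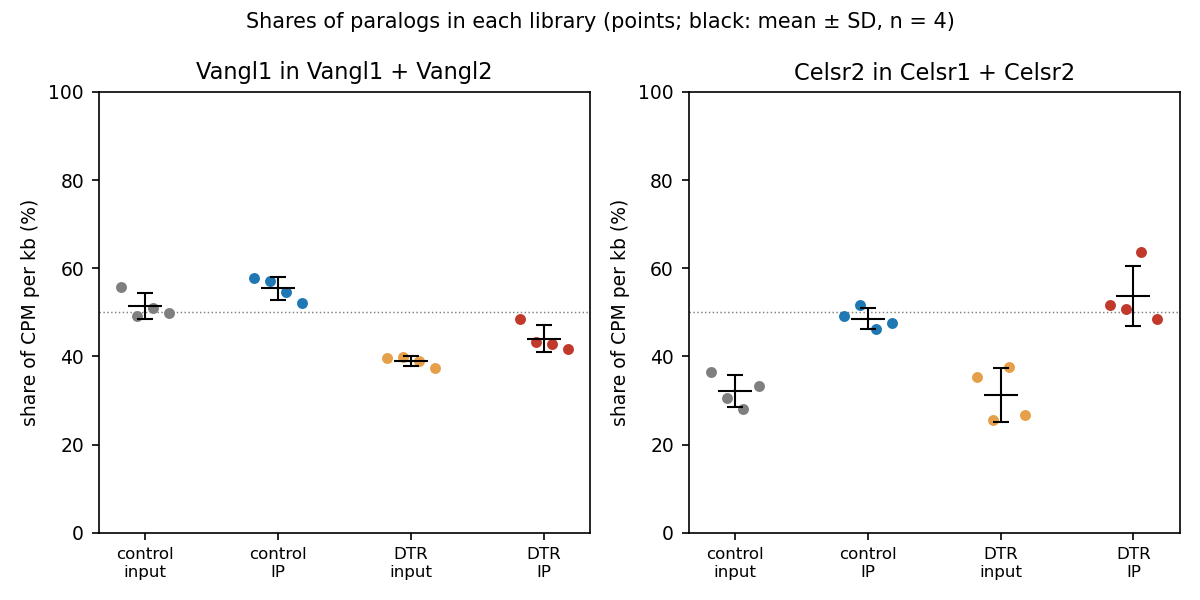
Share of Vangl1 in the sum of Vangl1 and Vangl2 (left) and of Celsr2 in the sum of Celsr1 and Celsr2 (right), in percent of CPM per kb of exon, for each library (points) with the mean and SD per group (n = 4) in black. The mean share of Vangl1 lies above an equal share (dotted line) in control and every DTR library lies below it, and Celsr2 holds a larger share in IP than in input.

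The Celsr genes encode large cadherins with a transmembrane receptor domain that bind one another across cell borders. Celsr2 (ENSMUSG00000068740, chromosome 3 from 108390851 to 108415552, minus strand) had 48.2, 52.0, 53.8 and 41.3 CPM in control input and 29.7, 26.1, 29.2 and 41.4 CPM in DTR input. Of the DTR libraries 3 were below every control library, and replicate 4 was at the level of the lowest control. The LFC was -0.64 (standard error 0.14, adjusted p = 0.0039), and the call held in 28 of 28 alternatives with adjusted p between 0.00031 and 0.019. In IP, Celsr2 was at 97.1 ± 5.41 CPM in control and 86.2 ± 14.3 CPM in DTR, with an LFC of -0.20 (95% interval from -0.49 to 0.09, adjusted p = 0.37). The difference between the changes in IP and input, the interaction, was 0.44 (standard error 0.20, adjusted p = 0.93) and was not called.

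Celsr1 (ENSMUSG00000016028, chromosome 15 from 85898929 to 86033777, minus strand) had the largest coefficients of variation of the tested members in input (25.6% in control and 40.5% in DTR). Control IP held 91.1, 93.8, 105 and 103 CPM, against 66.0, 72.2, 57.6 and 88.3 CPM in DTR IP. In these deposited values every DTR IP library lay below every control IP library. After quantile normalization, the scale of the test, the groups overlapped (separation 0.988). The LFC was -0.50 (standard error 0.22), with an unadjusted p of 0.036 and an adjusted p of 0.14. In input, control libraries held 80.1, 113, 132 and 79.1 CPM and DTR libraries 52.1, 72.8, 46.1 and 109 CPM, so that DTR replicate 4 lay among the controls. There the LFC came to -0.56 (standard error 0.22, adjusted p = 0.12), and without DTR input replicate 4 it was -0.79 (adjusted p = 0.013). In IP the call was gained in a model of the compared groups alone (adjusted p = 0.047) and with a correction for length and GC content (adjusted p = 0.035).

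The remaining members are cytoplasmic partners and a receptor. Prickle1 and Prickle2 encode LIM-domain adaptors bound to Vangl, Scrib encodes a scaffold of the basolateral membrane, Dvl2 encodes one of the Dishevelled proteins downstream of Frizzled, and Ptk7 encodes a kinase-like receptor without catalytic activity. None of these 5 genes was called after damage by limma, with 0 of 5 at an unadjusted p under 0.05 in IP and 0 of 5 in input, and the same held in the 28 alternatives, edgeR and DESeq2 included. The intervals give the precision of each estimate in the limma fit and do not exclude a change outside them. In IP the 95% intervals of the LFC ran from -0.17 to 0.38 for Prickle1, from -0.33 to 0.26 for Prickle2, from -0.41 to 0.28 for Ptk7, from -0.30 to 0.39 for Scrib and from -0.12 to 0.47 for Dvl2. Dvl2 was higher in DTR than in control in 4 of 4 replicate numbers in IP and in input, with an LFC of 0.17 in each (adjusted p = 0.47 and 0.54).

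**Figure D4:**
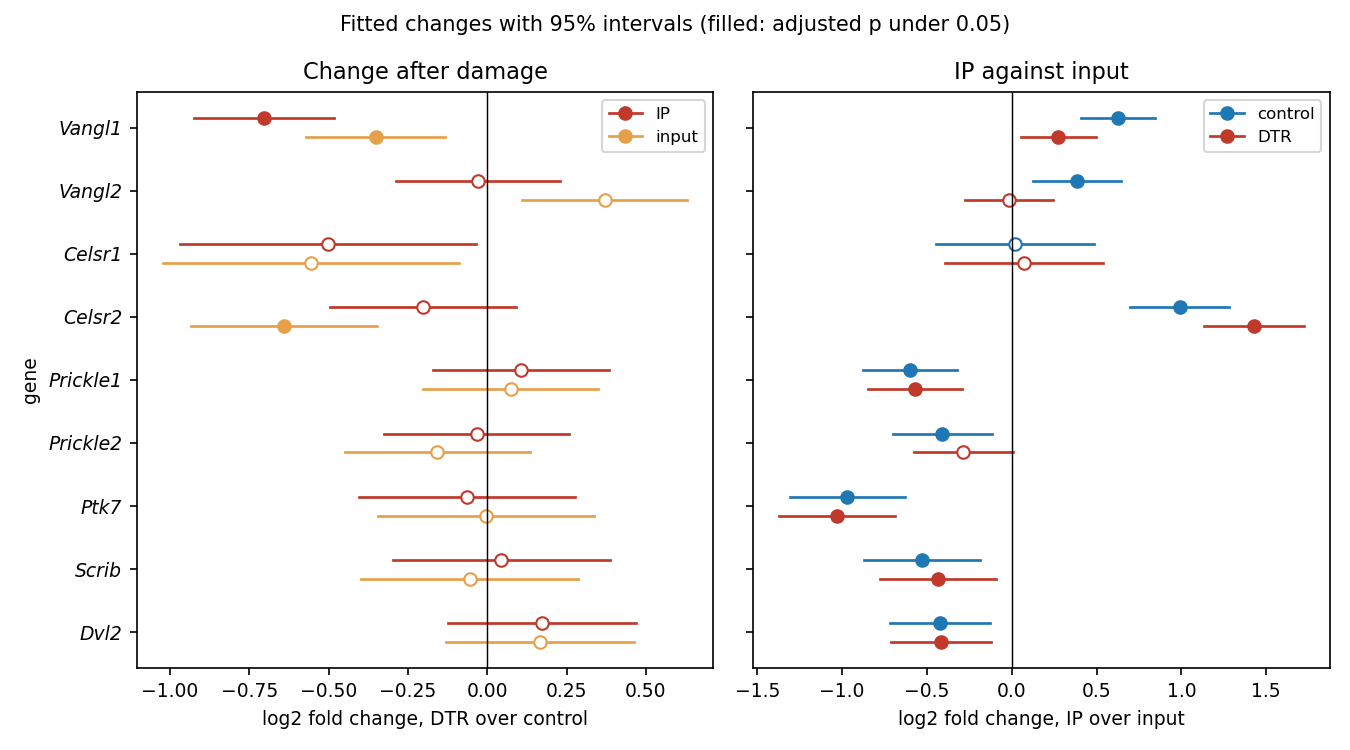
Fitted LFC of the 9 tested members (points) with 95% intervals (lines), after damage in IP and input (left) and for IP over input in control and DTR cochleae (right), where filled points mark an adjusted p under 0.05. After damage only Vangl1 is filled in IP (-0.70), with Vangl1 and Celsr2 filled in input, while over input in control cochleae Vangl1, Vangl2 and Celsr2 are filled above 0 and Prickle1, Prickle2, Ptk7, Scrib and Dvl2 below it, with Vangl2 and Prickle2 open in DTR.

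The next question was whether the members were more or less abundant on the tagged ribosomes than in whole homogenate. In control cochleae 3 of 9 members were higher in IP (Vangl1, Vangl2 and Celsr2) and 5 of 9 lower (Prickle1, Prickle2, Ptk7, Scrib and Dvl2), while Celsr1 was not called. Over all tested genes, 19.3% were called higher and 20.7% lower. In DTR cochleae 2 members were higher (Vangl1 and Celsr2) and 4 lower (Prickle1, Ptk7, Scrib and Dvl2), against 18.6% and 20.5% of all tested genes. All 6 of these had the same direction in control cochleae. On quantile-normalized values, IP and input libraries did not overlap for 6 of 9 members in control and 4 of 9 in DTR cochleae. Of all tested genes, 39.0% and 33.4% did not overlap. The enrichment criteria of the study, applied here in both directions (absolute LFC of at least 2, separation above 1.5 and an above-median mean) were met by 0 members in either direction in control and 0 in DTR cochleae, and by 0.783% and 0.636% of all tested genes.

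Celsr2 had the largest difference in favour of IP. Control IP held 91.9, 104, 94.6 and 97.7 CPM, each above the 41.3 to 53.8 CPM of control input, and DTR IP held 73.6, 78.2, 106 and 86.9 CPM, each above the 26.1 to 41.4 CPM of DTR input. The LFC was 0.99 in control (standard error 0.14, adjusted p = 1.7e-05) and 1.43 in DTR cochleae (adjusted p = 3.3e-07), or 1.99-fold and 2.69-fold, and both calls held in 28 of 28 alternatives. Within single pools the ratio of IP to input CPM ran from 1.76 to 2.37 in control and from 2.10 to 3.63 in DTR. Celsr1 showed no such difference, with pool ratios on both sides of 1 (0.798 to 1.31 in control and 0.811 to 1.27 in DTR), an LFC of 0.02 in control (95% interval from -0.45 to 0.48) and 0.07 in DTR. Celsr2 made up 32.1% ± 3.63 of the sum of both genes per kb in control input and 48.6% ± 2.31 in control IP, and 31.3% ± 6.11 and 53.7% ± 6.85 in DTR input and IP.

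The Vangl genes were enriched to a smaller extent. Vangl1 had an LFC of 0.63 in control cochleae (adjusted p = 0.00011, called in 28 of 28 alternatives), where all IP libraries lay above all input libraries. In DTR cochleae its LFC was 0.27 (adjusted p = 0.045), a call that held in 10 of 28 alternatives and was lost without any single library except control input replicate 2, DTR input replicate 4, DTR IP replicate 3 or control IP replicate 4, with adjusted p between 0.050 and 0.13. The call was also lost with edgeR (adjusted p = 0.052), DESeq2 (0.054) and CPM as deposited (0.052). So it was with CPM centred on library medians (0.080), no filter (0.063) and the compared groups alone (0.11). Vangl2 had an LFC of 0.38 in control cochleae (adjusted p = 0.019), which was lost without control input replicate 1 or 2 or control IP replicate 3 or 4 (adjusted p between 0.053 and 0.061). In DTR cochleae it was at -0.02 (95% interval from -0.28 to 0.24, adjusted p = 0.93). The interaction was -0.35 for Vangl1 (adjusted p = 0.88) and -0.40 for Vangl2 (adjusted p = 0.92). It was called for 0 of 9 members, with 3 of 9 at an unadjusted p under 0.05 (Vangl1, Vangl2 and Celsr2) against 870 of all 16994 tested genes. Over all tested genes it was called for 0.00% in the positive and 0.0118% in the negative direction, and edgeR and DESeq2 called it for 0 members.

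Ptk7 (ENSMUSG00000023972, chromosome 17 from 46564471 to 46629504, minus strand) showed the opposite pattern. It had 185, 178, 203 and 193 CPM in control input and 94.6, 92.5, 80.7 and 109 CPM in control IP, and 170, 204, 148 and 232 CPM in DTR input against 97.4, 110, 62.6 and 99.6 CPM in DTR IP. All IP libraries lay below all input libraries. The LFC was -0.97 in control (standard error 0.16, adjusted p = 0.00011) and -1.03 in DTR cochleae (adjusted p = 6.9e-05), and both calls held in 28 of 28 alternatives. Per pool, IP held 0.397 to 0.563 of the input level in control and 0.424 to 0.571 in DTR.

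Prickle1 (ENSMUSG00000036158, chromosome 15 from 93499114 to 93595891, minus strand) was lower in IP, at 23.4, 22.9, 25.1 and 22.5 CPM against 34.6, 31.5, 40.9 and 35.8 CPM in control input. The LFC was -0.60 in control (adjusted p = 0.0013) and -0.57 in DTR cochleae (adjusted p = 0.0022), called in 28 of 28 alternatives each. Prickle2 (ENSMUSG00000030020, chromosome 6 from 92370908 to 92706155, minus strand) was at 27.0 ± 2.92 CPM in control input and 20.4 ± 3.26 CPM in control IP, with an LFC of -0.41 (adjusted p = 0.025). That call was lost without control input replicate 1, 2 or 3 or control IP replicate 1 or 4 (adjusted p between 0.051 and 0.079), with edgeR (0.060) and with the correction for length and GC content (0.071). In DTR cochleae the LFC of Prickle2 was -0.29 (adjusted p = 0.11), and without DTR input replicate 1 it was -0.39 (adjusted p = 0.038). Prickle1 held 63.0% ± 2.68 of the sum of Prickle1, Prickle2 and Prickle3 per kb in control input and 55.1% ± 1.99 in control IP, and Prickle2 held 24.1% ± 2.90 and 24.0% ± 3.63.

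Scrib (ENSMUSG00000022568, chromosome 15 from 76047158 to 76069784, minus strand) was at 36.6, 31.1, 32.3 and 26.0 CPM in control input and 25.2, 24.9, 17.2 and 20.2 CPM in control IP, below it in all 4 pools. The LFC was -0.53 (adjusted p = 0.014), and the call was lost without control input replicate 1 (adjusted p = 0.054) or control IP replicate 3 (0.057). In DTR cochleae the LFC was -0.43 (adjusted p = 0.043), called in 16 of 28 alternatives. It was lost with edgeR (0.061) and DESeq2 (0.053), and without control input replicate 2 or 3, DTR input replicate 1, 2 or 4, or DTR IP replicate 2 or 3, with adjusted p between 0.051 and 0.16. CPM as deposited (0.089), no filter (0.081) and the compared groups alone (0.074) lost it too. Dvl2 (ENSMUSG00000020888, chromosome 11 from 70000595 to 70012301, plus strand) was at 48.6 ± 6.49 CPM in control input and 36.5 ± 4.48 CPM in control IP, and lower in IP in 4 of 4 pools of each genotype. Its LFC was -0.42 in control (adjusted p = 0.023) and -0.41 in DTR cochleae (adjusted p = 0.025). The first call was lost without control IP replicate 1 or 3 or control input replicate 4 (adjusted p between 0.053 and 0.086), with edgeR (0.051) and with the correction for length and GC content (LFC -0.28, adjusted p = 0.065), and the second without DTR IP replicate 2 or 3 or DTR input replicate 4 (adjusted p between 0.063 and 0.096). Without a filter on low values the second call was lost too (adjusted p = 0.05). Dvl2 shares exon sequence with Acadvl on the opposite strand, with the uncertainty named for Vangl1. Per kb, Dvl2 had the smallest mean share of the 3 Dishevelled genes in control input, at 28.9% ± 3.00 of their sum. Dvl1 held 36.7% ± 4.19 and Dvl3 34.4% ± 4.52 there, with overlapping ranges. For control IP the share of Dvl2 was 22.3% ± 5.17 and that of Dvl1 47.3% ± 5.40. DTR input gave 25.7% ± 3.97 for Dvl2 and 46.2% ± 5.48 for Dvl1. Among DTR IP libraries Dvl2 held 19.9% ± 1.87, overlapping Dvl3 (22.6% ± 3.86), and Dvl1 held 57.4% ± 4.71. Differences in these shares were not tested.

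The IP and input libraries also differed in markers of other cell types. In control IP, hair cell markers summed to 247 to 309 CPM against 553 to 769 CPM in input, with 8 of 10 genes lower and 2 higher, and mesenchymal markers to 3340 to 4575 against 6109 to 6933 CPM, with 5 of 8 lower and 0 higher. Macrophage markers (14.5 to 21.4 against 88.9 to 93.1 CPM) and endothelial markers (35.4 to 54.9 against 127 to 158 CPM) were lower in 6 of 6 genes each, and markers of glia and neurons in 4 of 7. Markers of the GER were higher in 3 of 7 genes and lower in 1, with summed ranges of 8052 to 9242 CPM in control IP and 6801 to 10398 CPM in control input. The part of these cell types in the levels of the members was not tested. In the same comparison, 19.3% of all tested genes were called higher and 20.7% lower. After damage, 5 of 7 GER markers were lower in IP, and 5 of 8 mesenchymal and 5 of 6 macrophage markers (14.5 to 21.4 CPM in control, 33.5 to 50.4 CPM in DTR) were higher, beside the drop of supporting cell markers given above. In input, 3 of 7 GER markers were lower and 1 higher, 2 of 7 markers of glia and neurons were lower, with summed ranges of 1549 to 3124 CPM in control and 929 to 1251 CPM in DTR, and 5 of 6 macrophage markers were higher (88.9 to 93.1 against 123 to 200 CPM). The part of these cell types in the changes of Vangl1 and Celsr2 was not tested. After damage, 8.44% of all tested genes were called higher and 7.30% lower in IP, and 7.17% and 5.21% in input.

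Celsr2 had the widest range of group means among the members (1.63 on the log2 scale, highest in control IP and lowest in DTR input). The 5 tested genes with the highest Pearson's r to it over the 16 libraries were Trib1 (0.97), Zbtb7b (0.96), Tsku (0.96), Acads (0.95) and Ssh1 (0.95). Trib1, a pseudokinase gene, averaged 35.2 CPM in input and 89.6 CPM in IP of control cochleae, and 22.2 and 67.6 CPM in those of DTR cochleae. Zbtb7b, a zinc finger factor gene, averaged 13.5, 40.0, 10.8 and 35.5 CPM in the same order. The 16 libraries share 4 groups and 8 pools, so that r mostly follows the order of the group means and is given as a description.

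The pathway around the members was followed in 46 further genes, 45 of them tested (Prickle4 was below the filter). After damage, 12 of 45 were called in IP, 5 higher and 7 lower, and 6 in input, 2 higher and 4 lower, beside 8.44% higher and 7.30% lower of all tested genes in IP and 7.17% and 5.21% in input. Under the replicate block the count in input was 11. By the size criteria of the study, 3 were called in IP (Ror2, Gpc4 and Ankrd6) and 1 in input (Ankrd6), against 2.47% and 2.34% of all tested genes. The median LFC of the 45 genes was -0.04 in IP and -0.04 in input. On quantile-normalized values, DTR and control libraries did not overlap for 14 of 45 genes in IP and 8 of 45 in input. Of all tested genes, 16.5% and 19.5% did not overlap. The plot of the pathway genes shows each of these genes by its role. Genes named here beyond the 3 with the largest change in each direction were added after their values were seen, to complete short counts.

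**Figure D5:**
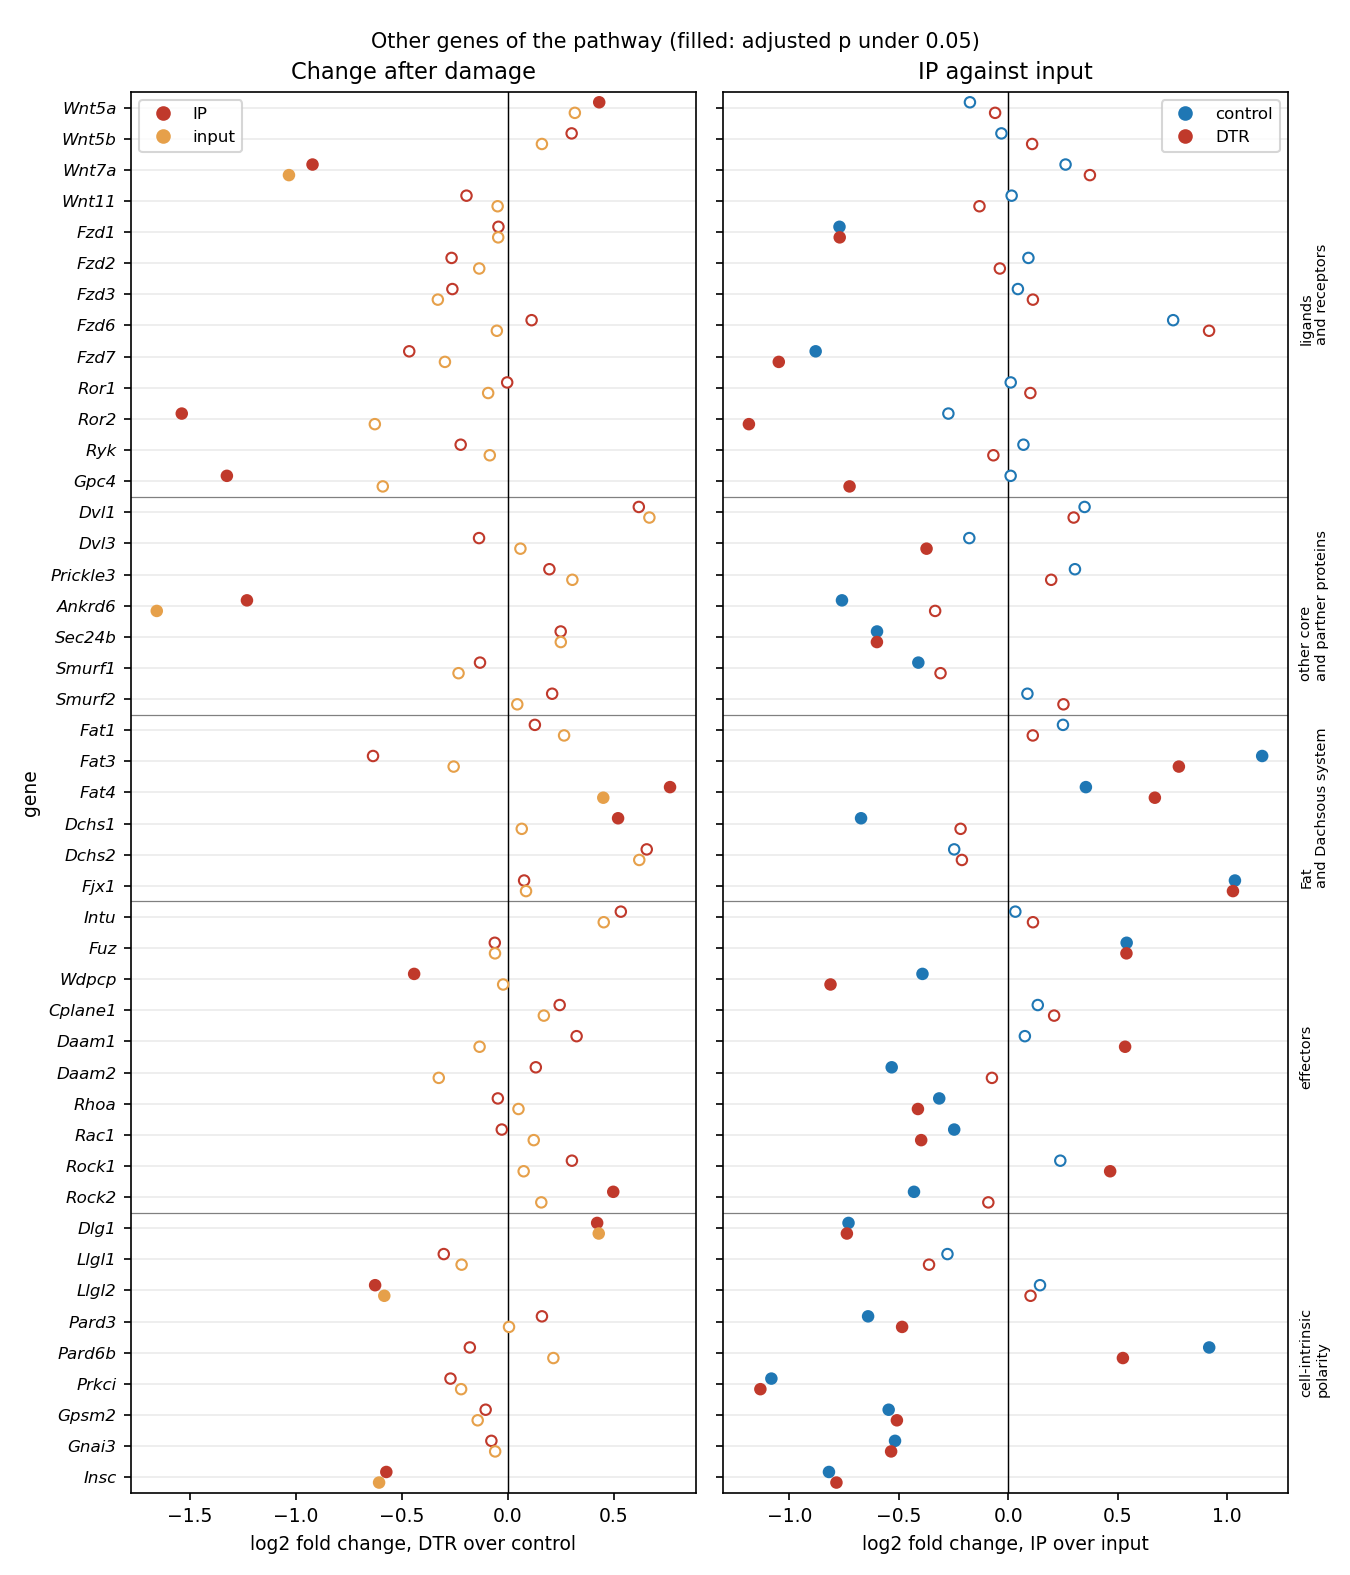
LFC of the 45 tested pathway genes outside the members, by role, after damage in IP and input (left) and for IP over input in control and DTR cochleae (right), where filled points mark an adjusted p under 0.05. After damage the largest changes are drops of Ror2, Gpc4, Ankrd6 and Wnt7a, and in the IP comparison most filled points lie left of 0 (17 of 22 in control and 15 of 22 in DTR).

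Among 13 ligands and receptors, 4 were called in IP after damage, 1 higher and 3 lower, beside 8.44% higher and 7.30% lower of all tested genes. Gpc4, a cell surface proteoglycan that binds Wnt ligands, had 111, 108, 87.1 and 116 CPM in control IP, against 60.4, 51.8, 23.9 and 45.4 CPM in DTR IP. The groups lay apart, and the LFC was -1.32 (standard error 0.19, adjusted p = 6.7e-05). Ror2, a receptor of Wnt5a, was low, at 9.90, 10.8, 8.88 and 8.01 CPM in control IP, against 5.14, 4.98, 0.63 and 4.50 CPM in DTR IP, and the LFC was -1.54 (adjusted p = 0.011), which was -0.95, and still called, without DTR IP replicate 3. Wnt7a, a Wnt ligand, fell in IP (LFC -0.92, adjusted p = 0.0008) and in input, where 35.7, 47.0, 60.9 and 58.5 CPM in control stood against 19.8, 23.8, 24.7 and 29.2 CPM in DTR (LFC -1.03, adjusted p = 0.00031). Wnt5a, a ligand of this pathway, was higher in DTR IP (231 ± 7.12 to 303 ± 35.3 CPM, LFC 0.43, adjusted p = 0.0066). Fzd7, a Frizzled receptor, was not called in IP (LFC -0.46, adjusted p = 0.057) but was called lower in 8 of 28 alternatives, among them the replicate block (adjusted p = 0.0066), edgeR (0.040) and DESeq2 (0.026). In input Wnt7a was the only 1 of 13 called, beside 7.17% higher and 5.21% lower of all tested genes. For Gpc4 in input the LFC was -0.59 and was not called. It passed the threshold with the replicate number as a block (adjusted p = 0.020), edgeR (0.043), DESeq2 (0.013) and the compared groups alone (0.0015). The same held with the correction for length and GC content (0.034), CPM centred on library medians (0.044) and a pseudocount of 1. Leaving out DTR IP replicate 1 or 3 also brought the call (adjusted p = 0.037 and 0.0011).

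Shares called over all tested genes after damage were 8.44% higher and 7.30% lower in IP, and 7.17% and 5.21% in input. Among 7 tested core and partner proteins, the 1 gene called after damage was Ankrd6, the homologue of the fly polarity protein Diego. It had 68.3, 60.7, 74.5 and 78.8 CPM in control input and 18.7, 22.4, 20.5 and 27.0 CPM in DTR input, and 40.0, 46.4, 44.7 and 35.1 CPM in control IP against 13.9, 19.3, 20.8 and 17.7 CPM in DTR IP. Every DTR library lay below every control library. The LFC was -1.66 in input (standard error 0.15, adjusted p = 1.7e-07) and -1.23 in IP (adjusted p = 7.3e-06). Of the 6 Fat and Dachsous genes, large cadherins of a second polarity system with their kinase Fjx1, 2 rose in IP (Fat4 and Dchs1) and 1 in input (Fat4). Fat4 was at 41.7, 32.4, 31.5 and 28.9 CPM in control IP, against 57.0, 55.4, 70.8 and 50.4 CPM in DTR IP, with an LFC of 0.77 (adjusted p = 0.00066). In input its LFC was 0.45 (adjusted p = 0.038), a call lost without DTR input replicate 1, 2 or 3 or control input replicate 2, 3 or 4 (adjusted p between 0.053 and 0.14). This call was also lost with no filter (adjusted p = 0.061). Dchs1, a partner of Fat4, had an LFC of 0.52 in IP (adjusted p = 0.043), called in 17 of 28 alternatives. It was lost without control IP replicate 1, 2 or 3, DTR IP replicate 3 or 4, control input replicate 2 or DTR input replicate 1 (adjusted p between 0.050 and 0.13), and with edgeR (0.056), the correction for length and GC content (0.058), no filter (0.090) or the compared groups alone (0.067). Fat3 was not called in IP (LFC -0.64, adjusted p = 0.070) but was called lower in 4 of 28 alternatives, among them the replicate block (adjusted p = 0.025).

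Of 10 effectors, 2 were called in IP after damage, 1 higher and 1 lower, and 0 in input, where 1 had an unadjusted p under 0.05. The shares called over all tested genes were 8.44% higher and 7.30% lower in IP, and 7.17% and 5.21% in input. Wdpcp was lower in DTR IP (LFC -0.44, adjusted p = 0.018). Of 9 genes of cell-intrinsic polarity, which place the mitotic spindle and the apical domain, Insc and Llgl2 were lower and Dlg1 higher after damage in IP and in input. Insc fell by 0.61 on the log2 scale in input (adjusted p = 0.0058), and Dlg1 rose from 69.3 ± 5.98 to 94.2 ± 9.21 CPM there (LFC 0.43, adjusted p = 0.0077).

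Against input, 22 of 45 pathway genes were called in control IP, 5 higher and 17 lower, and 22 in DTR IP, 7 higher and 15 lower. Of all tested genes, 19.3% were higher and 20.7% lower in control IP, and 18.6% and 20.5% in DTR IP. Those that were lower with the largest LFC in control were Prkci, the atypical protein kinase C of the apical complex (85.2 ± 10.6 to 39.6 ± 4.78 CPM, LFC -1.08), Fzd7 (103 ± 10.2 to 55.3 ± 4.97 CPM, LFC -0.88), and Insc (LFC -0.82). In DTR cochleae Prkci (LFC -1.13) and Fzd7 (-1.05) were again lower, together with Ror2 (-1.18, adjusted p = 0.023, lost without DTR input replicate 2, adjusted p = 0.081, and without DTR IP replicate 3, LFC -0.60, adjusted p = 0.052). The Ror2 call was also lost with no filter (adjusted p = 0.072) and with the compared groups alone (0.073). Higher in IP were Fjx1 (47.7 ± 7.67 to 97.6 ± 11.2 CPM, LFC 1.04 in control and 1.03 in DTR), Pard6b, a partner of atypical protein kinase C (LFC 0.92 in control), and Fat3 at low levels (2.31 ± 0.650 to 5.48 ± 1.27 CPM, LFC 1.16 in control and 0.78 in DTR). Against DTR input, Fat4 too was higher in the DTR IP libraries (LFC 0.67, adjusted p = 0.00083). The interaction was called by limma for 0 of the 45 genes, with 3 of 45 (Gpc4, Wdpcp and Daam1, named after their values were seen) at an unadjusted p under 0.05, against 870 of all 16994 tested genes. For Gpc4 it was -0.74, with a 95% interval from -1.30 to -0.17 (adjusted p = 0.71), and for Ror2 -0.91, with an interval from -2.08 to 0.26.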

How the data were processed

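The deposited values are CPM of each gene in each library, made by the authors. Per the study's methods, reads were aligned to GRCm38 with HISAT2 and counted with HTSeq, while the submitters' processing notes name TopHat. The annotation release and the strand setting are not given in the sources used here. Whole reads were recovered from the CPM for at least 99.996% of values per library (tolerance 0.01 reads). CPM were quantile normalized and tested as log2(CPM + 0.5) with limma 3.58.1 in R 4.3.3 (trended prior variance, two-sided, p-values adjusted by Benjamini-Hochberg over 16994 genes), with group means over all 16 libraries. The filter required 0.5 CPM or more in each of the 4 libraries of 1 group. Positions, exon lengths and overlaps came from GENCODE M21.

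Input and IP of the same number come from the same pool per the methods and labels. Same-numbered libraries deviated together from their group means across genes (r 0.288 to 0.491 within genotypes and 0.291 to 0.559 between them, each pair over 0.1). For differently numbered libraries r ran from -0.363 to 0.290 within genotypes and from -0.369 to 0.229 between them. An alternative therefore took the number as a block. Pools hold several mice, and p-values of the main fit measure the spread between libraries within groups. That fit treats the 16 libraries as independent, although input and IP come from 8 shared pools.

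The other alternatives were CPM as deposited or centred on library medians, pseudocounts of 0.1 and 1, no filter or at least 2 CPM, the compared groups alone, a loess correction for exon length and GC content, edgeR 4.0.16 (quasi-likelihood) and DESeq2 1.42.0 on recovered reads, and each library left out. The procedure was tested on simulated data. Named genes were the 10 members, the called pathway genes with the largest LFC (up to 3 per direction and comparison), Lgr5, Slc1a3 and Mki67, and the 5 genes nearest to the member with the widest range. The members and lists were chosen with earlier results of these data known. Depth was 28089836 to 41966310 counted reads per library, and each member but Celsr3 held at least 494 reads in every library. The result of 1 called effector gene is not reported here.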

Additional observations from a re-analysis of the deposited data

How the results depend on the processing

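In the 28 alternatives, 0 called values of the members, of the pathway genes with the largest changes or of Lgr5, Slc1a3 and Mki67 changed sign. Single values of the other genes named in the text were not followed across the alternatives. Counts of called members ranged, over libraries left out, from 1 to 1 for DTR IP against control IP (1 with all libraries), from 1 to 3 for DTR input against control input (2), from 5 to 8 for control IP against control input (8), from 3 to 6 for DTR IP against DTR input (6), and from 0 to 0 for the interaction. For DTR IP against control IP the count was 2 in a model of the compared groups alone, 2 with a correction for length and GC content, and 3 with the replicate block and that correction, where Celsr1 and Celsr2 joined Vangl1. For DTR input against control input it was 4 with the replicate block and that correction, where Vangl2 and Celsr1 joined, and for DTR IP against DTR input it was 3 without a filter on low values. The replicate block alone gave 3 called members in input, with Vangl2 added, and changed no other call of a member. Pathway genes called after damage numbered 20 in IP with the replicate block and the correction (12 without), and in input 11 with the replicate block, 12 with the correction and 14 with both (6 without). Over libraries left out, pathway counts ranged from 9 to 15 and from 4 to 9 after damage in IP and input, and from 17 to 23 and from 20 to 24 against input in control and DTR cochleae. The size criteria of the study called 0 members in every setting. The cause of these moves was not tested. Ror2 was at 0.63 CPM in DTR IP replicate 3, against 4.50 to 5.14 CPM in the other DTR IP libraries. Fat3 was at or below 6.98 CPM in every library. What these levels mean for the precision of both genes was not tested, and why Celsr3 was listed at 0 was not tested.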
